A study of Homo sapiens with 15 samples.

Results

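The nuclear genes that encode subunits of respiratory chain complexes I to IV were examined in C4-2B cells, a human prostate adenocarcinoma line. The members are 59 genes listed by the complex their protein belongs to, 35 of complex I, 4 of complex II, 8 of complex III and 12 of complex IV, out of 58302 genes in the count tables. No measured value was used to choose them, although earlier results of these data were known. The labels describe RNA-seq of 15 samples in 5 groups, of which the 3 libraries of wild-type C4-2B cells, for which no treatment is labelled, were used and the neuroendocrine-like DKD and ER groups were not analysed here. The results therefore describe levels within a single cell line, and no condition was compared. C4-2B is an established line grown in serum-containing RPMI medium, and the study's methods speak of independent replicates. The labels do not say whether these were separate cultures, so the spread between libraries may be technical.

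The respiratory chain of the inner mitochondrial membrane passes electrons from NADH and succinate to oxygen. Complex I oxidises NADH, complex II oxidises succinate, complex III hands electrons from ubiquinol to cytochrome c, and complex IV, cytochrome c oxidase, reduces oxygen to water. Complexes I, III and IV pump protons across the membrane and are built from subunits of both genomes, while complex II is encoded in the nucleus alone. Several complex IV subunits have a general isoform and another used mainly in heart and skeletal muscle or in lung.

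Total counts were 44992971, 49569026 and 46232076 in replicates 1, 2 and 3. The epithelial markers of prostate lumen were high, with a median of 254 ± 2.29 TPM (SD, n = 3) over 5 genes and KLK3, prostate-specific antigen, at 1988 ± 21.1 TPM. TPM is the count per base of gene length, scaled to the same sum in each library. The neuroendocrine markers CHGA and SYP had 1.38 ± 0.243 and 1.31 ± 0.0773 TPM. Of the 4 striated muscle markers, MYL2 had no counts and the other 3 (CKM, ACTA1 and MYH7) stayed at or below 0.362 TPM in every library. The blood cell genes PTPRC and HBB had 2 counts and 0 counts over all libraries.

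Together the members took 0.580%, 0.574% and 0.573% of all counts and 0.935% ± 0.00580 of all TPM. A level of at least 1 TPM in every library was reached by 57 of the 59 members, against 61.2% of 19708 protein-coding genes in the same tables. At least 10 TPM in every library was reached by 54 of the 59 members, against 8544 of the 19708 protein-coding genes. The members below 1 TPM were COX4I2 and COX6A2, both tissue-restricted isoforms of complex IV. The median member stood at 96.4, 92.1 and 94.7 TPM in the 3 libraries. That is 4.27 ± 0.106 times the median of 22.1 ± 0.136 TPM over the 12059 expressed protein-coding genes. The difference was larger than the spread between libraries. With the length of a single selected transcript per gene, the ratio was 7.44 ± 0.198. The members' selected transcripts were also shorter, with a median of 737 bases against 3298 for the expressed protein-coding genes, and the part of length in the difference was not tested.

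The complexes were not represented at equal levels. The median subunit stood at 66.3 ± 4.0 TPM in complex I and 70.2 ± 1.25 TPM in complex II, and at 273 ± 4.12 TPM in complex III and 197 ± 3.27 TPM in complex IV. On the log2(TPM + 1) scale, the complex median minus the median of all members was -0.50 ± 0.09 for complex I, -0.43 ± 0.05 for complex II, 1.52 ± 0.05 for complex III and 1.06 ± 0.01 for complex IV. Complexes I and II lay below and complexes III and IV above the common median in all 3 libraries, and the medians of complexes I and II differed by no more than their spread. Leaving the 3 tissue-restricted isoforms out raised the complex IV median to 261 ± 5.68 TPM. With 3 libraries an exact two-sided test of paired values cannot go below p = 0.25, so no test was made between complexes.

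**Figure D1:**
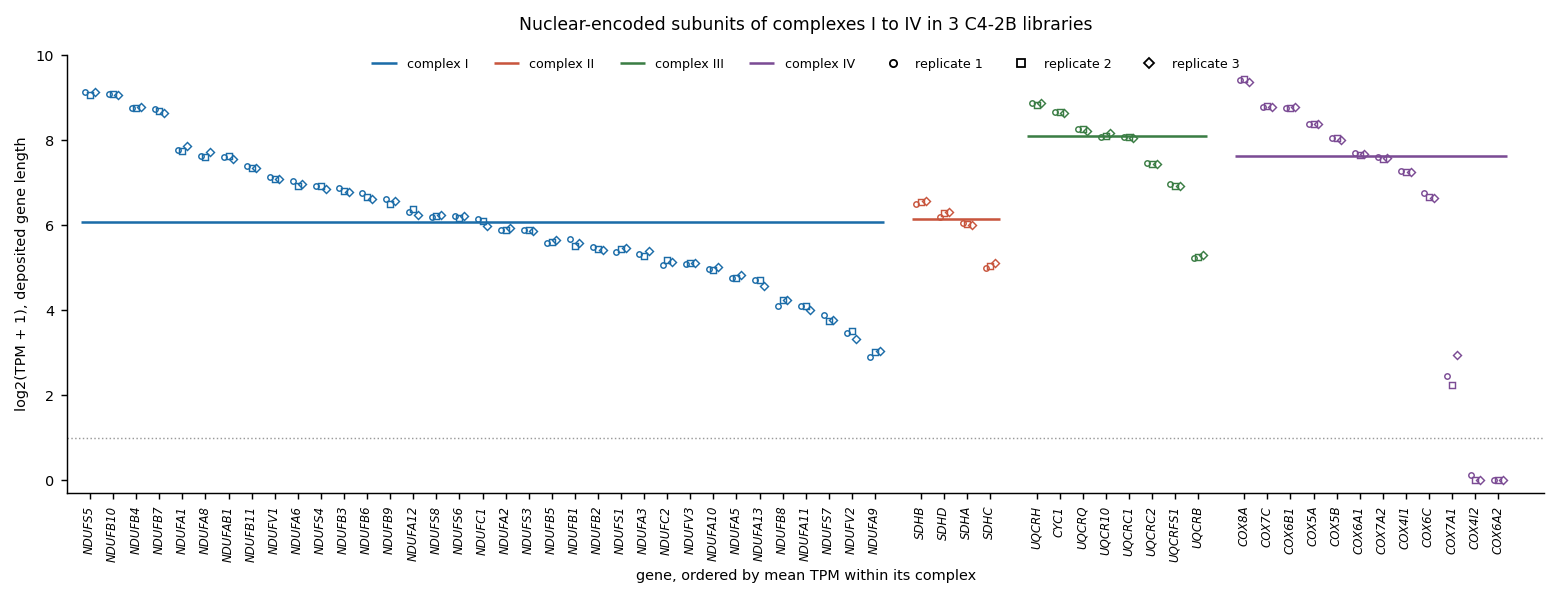
Level of each of the 59 members in each C4-2B library, as log2(TPM + 1) with the deposited gene length, ordered within its complex; circles, squares and diamonds are replicates 1, 2 and 3, bars are the complex medians and the dotted line is 1 TPM. The 3 libraries nearly coincide for most genes, complex III and IV bars lie above those of complexes I and II, and only COX4I2 and COX6A2 fall below the dotted line.

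The distance between complexes depended on the gene length used. The deposited length counts every base in any annotated exon of a gene, whereas the MANE Select transcript, chosen jointly by Ensembl and RefSeq to represent a gene, holds a single set of exons. The deposited length was 2.29 times the transcript length in the median member, from 0.936 times in UQCRQ to 10.8 times in SDHC, and 1.37 times in the median expressed protein-coding gene. With deposited lengths the complex III median was 3.89 ± 0.0263 times that of complex II, and with transcript lengths 1.81 ± 0.00852 times. Complex III still lay above complex II, but complex IV then had the highest median, 355 ± 4.50 TPM, ahead of 258 ± 3.15 TPM for complex III. Over the 57 expressed members, the levels by both lengths had a Spearman rho of 0.84, as a description across genes that share the same counts. Levels below use the deposited length unless another is named.

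**Figure D2:**
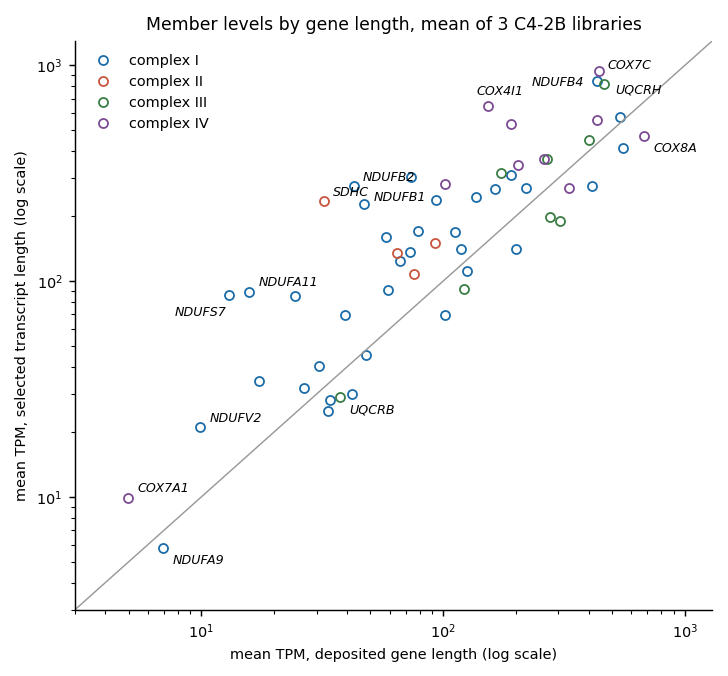
Mean TPM of the 57 expressed members with the deposited gene length (x axis, log scale) against that with the selected transcript length (y axis, log scale), coloured by complex; the grey line marks equal values. SDHC rises from 32.1 to 234 TPM, the largest such shift, while NDUFA9 is lowest by transcript length and COX7A1 lowest by deposited length.

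Subunits of the same complex did not have equal transcript levels. Within 2-fold of the median of their complex lay 33 of the 59 members, comprising 18 of 35 in complex I, 3 of 4 in complex II, 6 of 8 in complex III and 6 of 12 in complex IV. Of the 9 complex IV genes without the tissue-restricted isoforms, 7 lay within 2-fold of the median of those 9. Gene length was defined in 4 ways: the deposited one, exon bases under no other gene, the MANE Select transcript, and windows found once. The last counts those positions of that transcript where the 50-base window was not found in the genome outside the gene. Across these 4 definitions, 23 members always stayed within 2-fold. Another 6 always lay above and 10 always below, 19 crossed the limit once or more, and SDHC was below with some lengths and above with others. The 6 above were NDUFAB1, NDUFB4, NDUFB7, NDUFB10 and NDUFS5 of complex I and COX7C of complex IV. The complex IV median here includes the 3 tissue-restricted isoforms. Against the median of the other 9 genes, COX7C lay within 2-fold, at 440 ± 2.87 against 261 ± 5.68 TPM by deposited length. By transcript length it was at 938 ± 6.37 against 469 ± 9.68 TPM, just within 2-fold. The 10 below were NDUFA5, NDUFA9, NDUFA10, NDUFB8 and NDUFV2 of complex I, UQCRFS1 and UQCRB of complex III, and the 3 tissue-restricted isoforms of complex IV. The 4 lengths are not independent of each other. Among the 10, UQCRB, NDUFA9, NDUFA5, NDUFA10 and UQCRFS1 had selected transcripts of 3086 to 8459 bases, against a median of 737 over the members. NDUFB8, NDUFV2 and the 3 isoforms had 340 to 857 bases. The part of length in these low places was not tested.

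Complex I has an NADH-oxidising tip, a quinone-reducing part and a membrane arm that pumps protons. All 35 of its members were expressed, spanning 79.6-fold from NDUFA9 to NDUFS5, or 145-fold from NDUFA9 to NDUFB4 by transcript length. In the tip, NDUFV1, which binds NADH and the flavin, had 140, 135 and 135 TPM. NDUFS1, the largest iron-sulfur subunit, had 40.7, 42.5 and 43.1 TPM. NDUFV2, another iron-sulfur subunit of the same tip, had 10.1, 10.5 and 9.06 TPM. NDUFS1 thus stood 4.28 ± 0.414 times above NDUFV2, but the ratio was 1.42 ± 0.138 by transcript length and 0.978 ± 0.0948, within its spread of equality, by windows found once. In the quinone-reducing part, NDUFS3 and NDUFS8 had 57.9 ± 0.333 and 73.3 ± 1.59 TPM, and NDUFS7, which carries the last iron-sulfur cluster before ubiquinone, had 13.8, 12.5 and 12.6 TPM. NDUFS7 rose to 86.6 ± 4.78 TPM when its transcript length was used, so its place among the lowest members rested on the deposited length of 7533 bases.

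The accessory subunits of the distal membrane arm, the NDUFB genes, had a median of 102 ± 4.86 TPM over 11 genes, compared with 62.7 ± 1.44 TPM over the 18 other accessory subunits. NDUFB10 was the highest of the arm, at 547, 540 and 535 TPM, followed by NDUFB4 at 431, 429 and 438 TPM and NDUFB7 at 424, 412 and 399 TPM. By transcript length the order of the first pair turned, with NDUFB4 at 845 ± 9.85 TPM and NDUFB10 at 577 ± 5.93 TPM. NDUFB4 lay 5.81 to 6.97 times above the complex I median whichever length was used. NDUFB8 was the lowest of the arm at 17.4 ± 1.03 TPM. Reads shared by exons of several genes went uncounted, and 48.5% of the exon bases of NDUFB8 lie under another gene. With the same counts and only bases under no other gene as length, NDUFB8 still stood at 0.452 times the complex I median.

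Among the other accessory subunits, NDUFS5 had 563, 537 and 559 TPM, the highest of complex I by deposited length, and 412 ± 10.1 TPM by transcript length, below NDUFB4 and NDUFB10. NDUFA1, which is needed to assemble the membrane arm, had 221 ± 8.69 TPM. NDUFAB1, the mitochondrial acyl carrier protein that also serves fatty acid synthesis, had 191 ± 4.79 TPM. At the other end, NDUFA9, an accessory subunit beside the quinone site, had 6.46, 7.09 and 7.28 TPM from 973, 1172 and 1118 counts. It was the lowest of the complex in every library and stood between 0.0418 and 0.105 times the complex I median across the 4 lengths. The selected transcript of NDUFA9 has 8356 bases, and the part of length in its low level was not tested. NDUFA11 and NDUFA13 had 15.8 ± 0.626 and 24.3 ± 1.38 TPM by deposited length, and 89.3 ± 3.49 and 85.1 ± 4.79 TPM by transcript length.

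Complex II, succinate dehydrogenase, had the narrowest range of the 4 complexes, 2.87-fold. SDHB, its iron-sulfur subunit, had 92.3 ± 2.33 TPM. SDHA, the flavoprotein that oxidises succinate, had 65.7, 63.8 and 63.5 TPM. The membrane anchors SDHD and SDHC, which hold the heme and bind ubiquinone, had 76.0 ± 3.65 and 32.1 ± 1.34 TPM. The order of the anchors turned over with the length used: by transcript length SDHC was the highest member of the complex, at 234 ± 9.94 TPM, and SDHD the lowest, at 108 ± 5.31 TPM. The deposited length of SDHC is 14160 bases and its selected transcript has 1308.

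Complex III showed high levels in most subunits. The core proteins UQCRC1 and UQCRC2 had 269 ± 2.84 and 173 ± 1.08 TPM. Of the redox subunits, CYC1 (cytochrome c1) had 403, 405 and 400 TPM, and UQCRFS1, the Rieske iron-sulfur protein, had 124, 120 and 120 TPM. The hinge protein gene UQCRH was the highest of the complex at 466, 456 and 468 TPM. After UQCRH and CYC1 came UQCRQ and UQCR10 at 303 ± 7.53 and 277 ± 10.8 TPM. By transcript length these were at 191 ± 4.6 and 199 ± 7.93 TPM, in the opposite order and within their spread. UQCRB, which takes part in binding ubiquinone, stood apart from these at 36.7, 37.3 and 38.6 TPM, and its ratio to the complex III median stayed between 0.112 and 0.139 across the 4 lengths. All 4 lengths hold its long exons, with 8459 bases in the selected transcript against 1573 for UQCRQ. Its 16480 counts lay between those of UQCR10 (12222) and UQCRQ (20159), and the part of length was not tested.

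In complex IV the general isoforms and single-copy subunits, 9 genes, ranged from 102 ± 4.22 TPM for COX6C to 679 ± 14.3 TPM for COX8A. COX8A was 6.66 ± 0.237 times COX6C, but 1.66 ± 0.0589 times by transcript length, where COX7C was the highest of these genes at 938 ± 6.37 TPM and COX5A the lowest at 269 ± 0.546 TPM. By deposited length COX7C and COX6B1 came after COX8A, at 440 ± 2.87 and 434 ± 3.91 TPM, and their ratio of 1.01 ± 0.0151 became 1.68 ± 0.0249 by transcript length. COX5A had 334, 332 and 332 TPM, and COX5B 265, 263 and 254 TPM. By transcript length all 9 lay within 2-fold of the median of these 9 genes, compared with 7 of 9 by deposited length.

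The tissue-restricted isoforms of complex IV were nearly absent or low. COX4I2, used mainly in lung, had 1, 0 and 0 counts, while its general counterpart COX4I1 had 10712, 11569 and 10795 counts, or 154, 152 and 152 TPM. Per length, COX4I1 was 4783-fold higher, or 29001-fold by transcript length. The exact 95% binomial interval of the count share ran from 858-fold to 188937-fold by deposited length, because the denominator is 1 count. The heart and skeletal muscle isoform COX6A2 had no counts in any library, and COX6A1 had 206, 202 and 204 TPM. Set against a floor of 3 counts over all libraries, COX6A1 was 1662-fold higher by deposited and 2860-fold by transcript length. These are not lower bounds, since the 95% Poisson interval of 0 counts reaches 3.69. In addition, 46.0% of COX6A2 exon bases lie under another gene, where reads were not counted. COX7A1, the muscle isoform of the third pair, was present at 66, 60 and 99 counts, or 4.53, 3.75 and 6.66 TPM. COX7A2 had 195, 187 and 190 TPM, which is 38.5-fold higher (95% interval 33.8 to 44.1), or 54.2-fold by transcript length (47.5 to 62.04). Such intervals cover counting error alone, and each pair of mates could give 2 counts, which makes them too narrow. The muscle markers given above stayed at or below 0.362 TPM in the libraries that held COX7A1; the part of other cells in this value was not tested.

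As differences of log2(TPM + 1), a scale that shrinks changes of low genes, the general isoform exceeded the restricted one by 7.22 ± 0.07 for COX4I, 7.68 ± 0.02 for COX6A and 5.03 ± 0.35 for COX7A, with the same direction in 3 of 3 libraries. Paralogues outside the member list were also measured. COX7B2, an isoform known from testis, had 301, 296 and 249 counts, or 23.2 ± 2.43 TPM. NDUFA4L2, a gene induced by hypoxia in many cells, had 26.7 ± 1.11 TPM, and COX7A2L, which joins complexes III and IV in supercomplexes, had 28.2 ± 0.678 TPM. The testis isoforms COX6B2 and COX8C had 67 and 2 counts in all. The single-exon copy UQCRHL had 122, 176 and 166 counts, and UQCRH stood 100 ± 17.6 times above it by deposited length and 33.4 ± 5.83 times by transcript length.

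**Figure D3:**
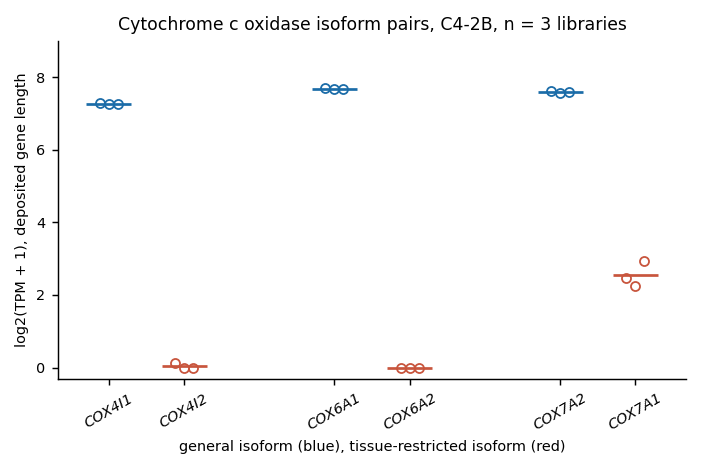
The 3 isoform pairs of complex IV as log2(TPM + 1) in each of the 3 C4-2B libraries (circles) with their mean (bar), general isoforms in blue and tissue-restricted isoforms in red. COX4I2 and COX6A2 sit at or next to 0, and COX7A1 lies between 2 and 3, below COX7A2 in every library.

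Promoters of the members were read from RefSeq (GRCh38.p14), from 250 bases before to 50 bases after the gene start, and 49 of the 59 members had an entry. NDUFB5, NDUFB9, NDUFC2, NDUFS5, SDHC, UQCRB, CYC1, COX4I2, COX6C and COX7A1 did not. The COX6A promoters are shown first, because this was the only isoform pair with both promoters in the table. The bases before the RefSeq start that lie outside the deposited gene are printed, 227 for COX6A1 (chr12:120437863-120438089, plus strand) and 182 for COX6A2 (chr16:31428429-31428610, minus strand), with matches to the NRF1 letters described below in capitals.
COX6A1: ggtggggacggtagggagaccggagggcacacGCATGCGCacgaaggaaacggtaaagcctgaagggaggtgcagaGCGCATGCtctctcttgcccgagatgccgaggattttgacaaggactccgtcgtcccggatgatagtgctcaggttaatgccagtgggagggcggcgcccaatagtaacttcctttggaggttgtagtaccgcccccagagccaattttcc
COX6A2: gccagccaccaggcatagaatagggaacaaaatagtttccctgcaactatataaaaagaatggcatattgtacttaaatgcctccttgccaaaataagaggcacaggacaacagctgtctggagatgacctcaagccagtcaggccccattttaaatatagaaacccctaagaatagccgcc
The full 250 bases before the start held 19 CpG dinucleotides and 60% G and C for COX6A1, and 1 CpG and 49.2% G and C for COX6A2. The median over member promoters was 19 CpG, and over 15842 promoters of protein-coding genes it was 17. The lowest member promoter was that of COX7A2, a general isoform at 191 ± 4.15 TPM, with 0 CpG.

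Exact matches to 3 motifs of 8 letters were searched on both strands. NRF1 (GCGCATGC), named for nuclear respiratory factor 1, was found in 9 of 49 member promoters (18.4%), compared with 3.27% of all 27305 promoters and 4.26% of those of protein-coding genes. The ETS motif (CCGGAAGT), bound by a family that includes GABPA, was found in 7 (14.3%, against 4.44% and 6.19%). The YY1 motif (AAGATGGC) was found in 7 (14.3%, against 3.03% and 3.91%). No match to a motif overlapped a match to another in a member promoter, but the NRF1 letters and their reverse complement overlap in the palindrome of NDUFB4, NDUFA8 and SDHD. At least 1 motif was held by 18 member promoters (36.7%, against 9.94% of all and 13.2% of protein-coding promoters), and more than 1 by COX5B, NDUFA6, NDUFS7, SDHB and SDHD (10.2%, against 0.780% and 1.14%). A match describes letters and is not evidence that a factor binds.

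The 4 windows below are from genes with an NRF1 match in each of complexes I and II and at unlike levels; each has 30 bases of the gene's strand, and the motif is in capitals.
NDUFB4 (chr3:120596166-120596195, plus strand): aagagcacttcGCGCATGCgcatatcaccg
NDUFS7 (chr19:1383823-1383852, plus strand): ttccggtttccGCATGCGCtccgagccgct
SDHB (chr1:17054214-17054243, minus strand): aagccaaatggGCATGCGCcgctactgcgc
SDHD (chr11:112086752-112086781, plus strand): cagctgtgtttGCGCATGCgcgacgggtgt
These genes stood at 433 ± 4.79, 12.9 ± 0.726, 92.3 ± 2.33 and 76.0 ± 3.65 TPM, and by transcript length they ranged from 86.6 ± 4.78 TPM for NDUFS7 to 845 ± 9.85 TPM for NDUFB4. The median member with an NRF1 match had 125 TPM and the median member promoter without it 107 TPM.

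The YY1 matches lay in the same place and the same orientation in all 7 members, beginning 11 to 26 bases after the RefSeq start. In each of the 7, the ATG inside the motif is the start codon of the MANE Select transcript, compared with 244 of 454 protein-coding promoters that hold these letters on the gene's strand (53.7%). The windows of 4 of them are shown to let the shared letters be seen, again with the motif in capitals.
SDHB (chr1:17054004-17054033, minus strand): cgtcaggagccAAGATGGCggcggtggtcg
UQCRC1 (chr3:48609605-48609634, minus strand): actgcagctggAAGATGGCggcgtccgtgg
NDUFS4 (chr5:53560649-53560678, plus strand): ttgcctgcagcAAGATGGCggcggtgtcaa
NDUFA9 (chr12:4649113-4649142, plus strand): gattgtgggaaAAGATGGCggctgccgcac
NDUFA3, NDUFA6 and NDUFS7 were the others. Their levels ran from 6.94 ± 0.430 TPM for NDUFA9 to 269 ± 2.84 TPM for UQCRC1.

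ETS matches were found in UQCRH, UQCRQ, COX8A, COX5B, NDUFS1, NDUFA13 and SDHD. Windows from the highest members of complexes III and IV and from COX5B, which holds the motif at 2 positions, are given below with the motif in capitals.
UQCRH (chr1:46303640-46303669, plus strand): gagtgtgccgcACTTCCGGccagatcgccg
COX8A (chr11:63974590-63974619, plus strand): ccagctccagaACTTCCGGccagcgcagcc
COX5B (chr2:97646014-97646043, plus strand): gaagcccgcccCCGGAAGTccctcctgtct
COX5B (chr2:97646046-97646075, plus strand): gcagcttgttcCCGGAAGTtttgctgctag
The median member with an ETS match had 261 TPM, and that without it 107 TPM, as a description over 7 and 42 genes. The factors themselves were measured too: NRF1, GABPA and YY1 had 18.6 ± 0.591, 20.4 ± 1.19 and 58.1 ± 0.912 TPM. Of 8 regulators of mitochondrial genes, the highest was ESRRA (estrogen-related receptor alpha) at 100.4 ± 4.55 TPM, and the lowest was the coactivator gene PPARGC1A at 0.438, 0.572 and 0.835 TPM, the only one of the 8 below 1 TPM.

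Members also shared features of position. A protein-coding gene on the opposite strand began within 1000 bases upstream of 18 of the 59 members (30.5%), against 9.46% of 20046 protein-coding genes. Members and such neighbours could stand at unlike levels. UQCRH at 463 ± 6.07 TPM lay 82 bases from LRRC41 at 42.3 ± 1.42 TPM. NDUFA8 at 200 ± 7.65 TPM lay 129 bases from MORN5 at 0.444 ± 0.444 TPM. The mitochondrial import gene TIMM8B, at 135 ± 5.45 TPM, and the mitochondrial ribosomal gene MRPL47, at 128 ± 1.25 TPM, lay 117 bases from SDHD and 156 bases from NDUFB5 and were both higher than their member by deposited length. So was EEF1B2, at 348 ± 3.94 TPM and 451 bases from NDUFS1 at 42.1 ± 1.28 TPM. Chromosome 19 carried 8 members (13.6%, against 7.42% of protein-coding genes). Chromosomes 5 and 11 carried 6 each (10.2%, against 4.43% of protein-coding genes on chromosome 5 and 6.59% on chromosome 11).

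Sequence shared with other places limited how well some members could be counted, since reads aligned to several places were left out and strand was not used in the counting. At least 20% of exon bases lay under exons of another gene in 11 members (18.6%), compared with 9.80% of expressed protein-coding genes. These were NDUFA1, NDUFA13, NDUFB2, NDUFB8, NDUFB11, NDUFS3, NDUFS7, NDUFV2, UQCRQ, COX6A2 and COX8A, with 20.8% (UQCRQ) to 49.1% (NDUFS7). At least 20% of the 50-base windows of the selected transcript occurred elsewhere in the genome in 7 members. The shares were 61.1% for SDHC, 59.8% for COX6A1, 50.3% for SDHD, 33.4% for UQCRH, 30.9% for NDUFV2, 22.8% for UQCRFS1 and 21.3% for SDHA, while 31 members had no such window. NDUFV2 was the only member in both sets.

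**Figure D4:**
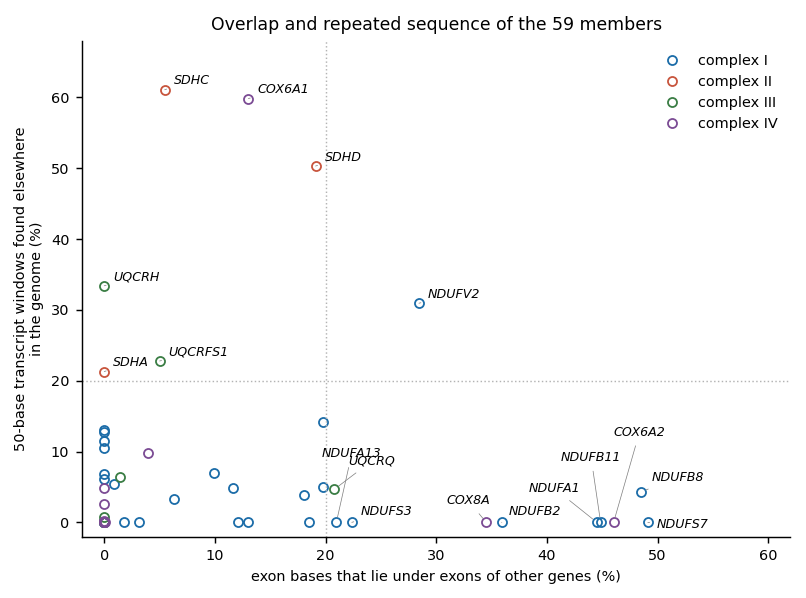
Share of each member's exon bases that lie under exons of other genes (x axis, %) against the share of 50-base windows of its selected transcript found elsewhere in the genome (y axis, %), coloured by complex, with dotted lines at 20%. SDHC, COX6A1 and SDHD lie highest, NDUFS7 and NDUFB8 farthest right, and NDUFV2 alone lies past both lines.

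Pseudogenes named after a member were counted for 35 members, 130 in all, and took 9550 counts, or 1.16% of the counts of pseudogenes and members together. For most members they were a trace: COX6C had 17 of them with 233 counts against 14139 for the gene. The exceptions were NDUFV2 and SDHA. NDUFV2P1 had 246, 291 and 221 counts where NDUFV2 had 397, 453 and 363, so the copy held 38.5% of their sum. The 4 SDHA pseudogenes had 6867 counts, 22.0% of the sum with SDHA, of which SDHAP4 had 1079, 1144 and 1199 and SDHAP1 934, 971 and 992. Whether such counts came from the copies or from reads of the gene placed there was not tested.

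Levels of the members differed little between libraries. The SD over the 3 libraries was 2.51% of the mean in the median expressed member, compared with 3.44% over expressed protein-coding genes and 2.77% over those at 10 TPM or more. COX5A varied least, by 0.295%, and COX7A1 most, by 30.3%, with NDUFV2 next at 7.48%. A chi-square test of each gene's 3 counts against TMM library sizes, with the statistic divided by 2 for the mates and Benjamini-Hochberg adjusted over 22229 genes with at least 30 counts, compares these libraries and not conditions. It called 0 of the 57 members tested at an adjusted p of 0.05, against 0.792% of all genes. At an unadjusted p of 0.05 it gave 6 of 57 (10.5%) against 11.3% of all genes, and DESeq2 size factors also gave 0 calls. The smallest adjusted p in this edgeR-normalized test were 0.235 for COX6C and 0.268 for SDHC. Without the correction for mates, 12 members (21.1%) passed against 17.3% of all genes.

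Compared with related genes, the members lay between the proteins that assemble the complexes and the mitochondrially encoded subunits. The 41 assembly factors had a median of 27.6 ± 0.735 TPM, and the members' median was 3.42 ± 0.0125 times as high, or 7.75 ± 0.305 times by transcript length. By complex, the assembly medians were 43.9 ± 3.06 TPM for I, 21.7 ± 1.03 TPM for II, 38.8 ± 0.573 TPM for III and 22.4 ± 0.987 TPM for IV. The highest assembly factor was TIMMDC1 of complex I by deposited length, at 134 ± 2.76 TPM, and NDUFAF3 of complex I by transcript length, at 222 ± 5.12 TPM. SCO2, a copper carrier of complex IV, had 0 counts, and 100% of its exon bases lie under another gene, so its level was not measurable here. The 17 nuclear subunits of ATP synthase had a median of 101 ± 2.65 TPM, 1.07 ± 0.0501 times that of the members by deposited length and 1.65 ± 0.0465 times by transcript length. They ranged from 30.5 ± 1.38 TPM for ATP5PO to 1934 ± 12.9 TPM for the catalytic subunit gene ATP5F1B. CYCS, the somatic cytochrome c, had 149 ± 1.88 TPM.

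Subunits encoded in mitochondrial DNA were far higher per length than nuclear ones of the same complex. The median ratio was 66.3 ± 10.9 in complex I (7 genes against 35), 28.1 ± 1.66 in complex III (MT-CYB against 8) and 65.5 ± 4.59 in complex IV (3 genes against 12, or 49.6 ± 3.92 against the 9 without the tissue-restricted isoforms). The ratios of complexes I and IV, the latter against 12 genes, differed by less than their spread. By transcript length the ratios were 21.6 ± 2.34, 20.02 ± 1.28 and 24.5 ± 1.77, with complex IV highest in each library. MT-CO1, the catalytic subunit of complex IV, had 15752, 16730 and 17407 TPM. The order of medians, complex I below III below IV, held for mitochondrial genes, while among nuclear members by deposited length complex III lay above complex IV. Mitochondrial genes took 2.71%, 2.90% and 3.09% of counts in the libraries, and each ratio above was lowest in replicate 1 and highest in replicate 3. The chi-square test between libraries called all 11 mitochondrially encoded subunits at an adjusted p of 0.05, against 0.792% of all genes.

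**Figure D5:**
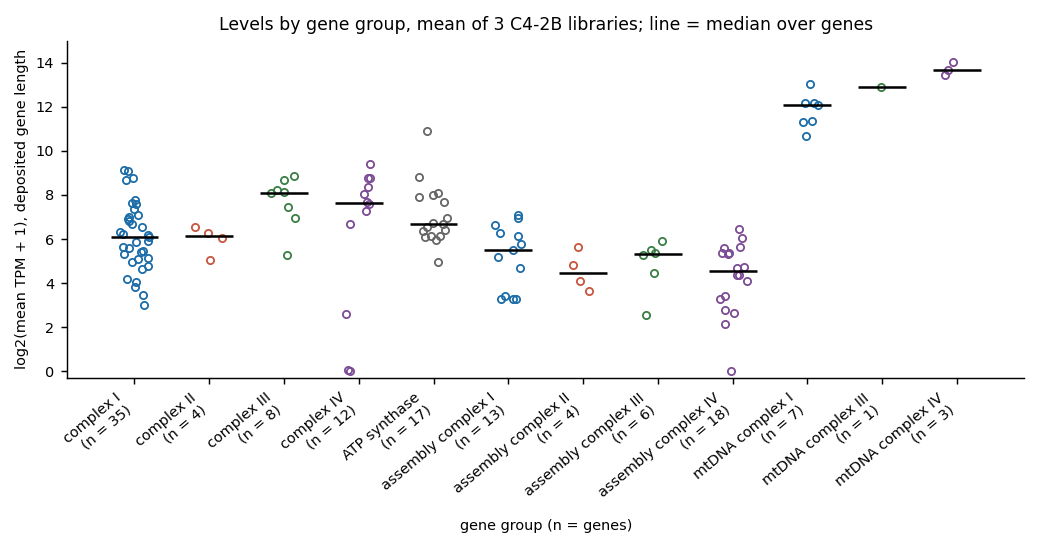
Mean TPM over the 3 C4-2B libraries of each gene, as log2(TPM + 1) with deposited lengths, for nuclear subunits of complexes I to IV, ATP synthase, assembly factors and subunits encoded in mitochondrial DNA (mtDNA); bars are medians over genes. Mitochondrial genes lie above every member, and the assembly factor medians lie below the subunit median of the same complex.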

How the data were processed

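RNA was depleted of ribosomal RNA and made into directional libraries, per the labels. The submitters' processing notes name STAR 2.7.0f and featureCounts from Subread 1.6.3 on GRCh38, and the file headers name the annotation of Ensembl release 90. The authors deposited raw counts per gene, with mates counted separately, strand ignored, and no count for a read over several genes or aligned to several places; the deposited tables also give gene length, another value per gene. From these, TPM was computed over 58302 genes, with mean and SD over 3 libraries of 44992971 to 49569026 counts. Symbols were matched for 57532 identifiers and all 59 members. Transcripts came from GENCODE release 44 and promoters from RefSeq. The libraries were compared by a chi-square test on TMM library sizes (edgeR 4.0.16, R 4.3.3), with Benjamini-Hochberg adjustment over genes with at least 30 counts and a threshold of 0.05; DESeq2 1.42.0 size factors were an alternative. In simulated counts for the comparison of the 3 libraries, the test called 0 of 22278 genes when none was changed. With 200 genes changed 2-fold in 1 library, it called 71.0% of them and 10 unchanged genes. Each simulated fragment gave exactly 2 counts without further variation. The unchanged simulation had 4.91% of genes at an unadjusted p of 0.05 in this chi-square test, against 11.3% in the data. The pseudocount was 1 TPM. Genes named with values were the highest and lowest members of each complex, the isoform pairs, and members with at least 20% overlap or repeated windows; other members and related genes were added after their values were seen. Members and lists were chosen with earlier results of these data known. Coordinates count from 1 on GRCh38. No protein sequences were used here, the libraries of the other labelled groups were not analysed here, and there were 0 columns of other samples.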

Additional observations from a re-analysis of the deposited data

How the results depend on the processing

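The values rest on 3 libraries of a single group, so errors show the spread between libraries alone, and levels of genes with overlapping or repeated sequence are limited by reads that were not counted. No paired analysis was possible because the libraries of only 1 group were analysed. The count of expressed members stayed at 57 without any single library, and that of members within 2-fold of their complex median ranged from 31 to 33. The median of all members, 94.4 TPM, was 97.1 with exon bases under no other gene, 166 with MANE Select lengths, 204 with 50-base windows found once, 137 with the mitochondrial and 10 most abundant genes left out of the scaling, and 93.4 to 95.5 with each library left out in turn. Relative to that median on the log2 scale, complex I was at -0.29 with MANE Select lengths, -0.23 with means in place of medians and -0.53 to -0.45 with a library left out; complex II at -0.22 with MANE Select lengths, -0.043 with windows found once and -0.45 to -0.40; complex III at 1.41 with bases under no other gene, 0.59 with MANE Select lengths, 0.36 with windows found once, 1.35 with means and 1.51 to 1.55; complex IV at 1.09 with MANE Select lengths, 1.14 with windows found once and 1.05 to 1.06. The mean of log2 values turned complex IV to -0.089, and without the 3 tissue-restricted isoforms that mean was 1.42, so the turn rests on these isoforms. Alternatives chosen after seeing the data were these. Without the 3 isoforms, the complexes stood at -0.61, -0.54, 1.42 and 1.35 by medians, II and III at -0.68 and 1.05 by means, and the median of all members was 102 TPM. With 100-base windows found once, complexes I, III and IV stood at -0.36, 0.42 and 1.298 and all members at 203 TPM. The isoform differences were 9.30 (MANE Select), 9.39 (windows) and 10.25 (pseudocount 0.1) for COX4I, 7.81 (bases under no other gene), 8.43, 9.88 and 10.995 for COX6A, and 5.65 and 5.61 for COX7A by MANE Select and windows; a library left out gave 7.20 to 7.26, 7.67 to 7.69 and 4.90 to 5.23. Without division by 2 the library test called 12 members instead of 0. The cause of the other shifts was not tested.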
